A study of Mus musculus with 83 samples.

Results

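The regions described here are the 500 kb bins of mouse chromosomes 6, 16 and 19 in 1 DNA library, the input of 3T3-L1 cells at day 7 of adipogenesis. These chromosomes were chosen from the measured values themselves: they had the highest read density of the 19 autosomes in this library, so their level is given as a description and is not tested. The 3 chromosomes held 617 complete bins, of which 594 were usable, out of 4682 usable bins of the 4936 complete autosomal bins. A bin was usable when at least 80% of its 10 kb windows held a read. Of the usable bins 291 lay on chromosome 6, 188 on chromosome 16 and 115 on chromosome 19.

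3T3-L1 is an established line of white preadipocytes from mouse embryo cells that turns into fat cells after hormonal induction. Lines of the 3T3 family grow without limit in culture and are known for chromosome numbers that depart from the normal mouse set. Input DNA is sheared chromatin sequenced without an antibody. Its read density along a chromosome follows the amount of DNA in the cells, and is also shaped by how well reads can be placed, by base composition and by how chromatin breaks. Chromosome 6 carries Pparg, the nuclear receptor gene that drives adipogenesis. Chromosome 16 carries Adipoq, which encodes the hormone adiponectin, and Cebpd, an early adipogenic factor, and chromosome 19 carries Scd1, a fatty acid desaturase. The chromosomes of these genes are from the RefSeq table of assembly GRCm38.p6. Where the genes lie relative to the steps described here was not determined, because the reads are placed on build mm9.

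The series followed enhancer factors during fat cell differentiation in 83 samples, mostly of immortalized brown preadipocytes. The library used here is labelled as mature adipocytes (day 7) of the 3T3-L1 line, with no antibody and no engineered allele. The treatment text given for it names insulin, T3, IBMX, dexamethasone and indomethacin at induction, then insulin and T3. Its growth text describes brown preadipocytes from newborn mice rather than 3T3-L1 cells. There was 1 such library, so nothing here could be checked in a replicate, and p-values are not given. A DNA library holds no RNA, so the labelled cell type could not be checked against marker genes. The library pools many cells, and a gain in all cells cannot be told apart from a larger gain in some of them.

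The file held 5064617 aligned reads, of which 4901800 remained after reads with the same chromosome, start and strand were kept a single time, and 4701929 of these lay on the autosomes. Each bin count was divided by the median of the complete autosomal bins that held a read, 932 reads. The result is called the bin ratio. A ratio of 1 is therefore the middle autosomal bin. A count of 932 has an exact 95% Poisson interval of 0.937 to 1.07 on this scale. These intervals cover counting error only.

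Chromosome 6 stood highest, with a median bin ratio of 1.61. Its lowest, middle and highest usable bins were at 0.766, 1.61 and 2.47. Chromosome 19 followed with a median of 1.34 and bins from 0.639 to 1.77, and chromosome 16 with a median of 1.28 and bins from 0.871 to 1.96. Just outside the 3 chromosomes lay chromosome 8 at 1.24 and chromosome 17 at 1.16, and the lowest autosome was chromosome 7 at 0.779. The mean bin ratio was 1.31 on chromosome 16, with an exact 95% Poisson interval of 1.30 to 1.31, and 1.26 on chromosome 8, with an interval of 1.26 to 1.27, while single bins of the 2 chromosomes overlapped. Together the 3 chromosomes took 17.3% of the kept autosomal reads on 12.5% of the autosomal span. Chromosome 6 alone took 9.37% of the reads on 6.05% of the span.

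**Figure D1:**
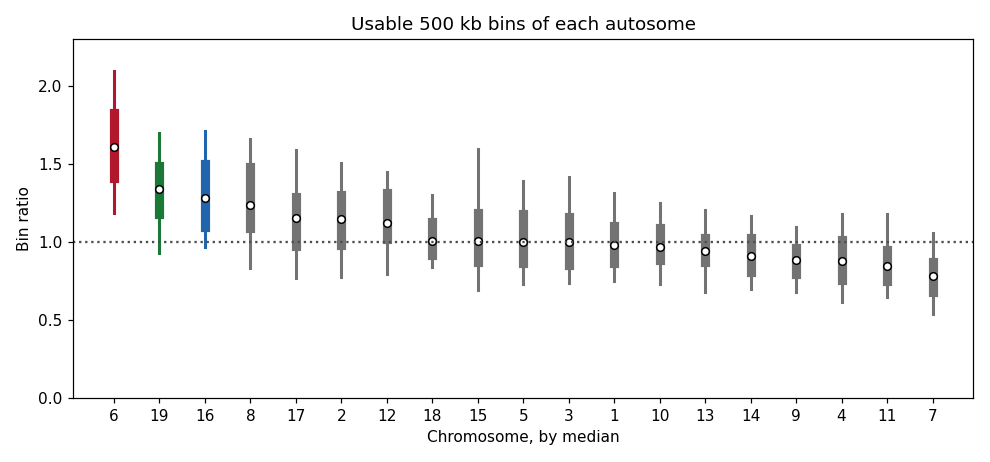
Bin ratios of the usable 500 kb bins of each autosome (y axis, reads divided by the median autosomal bin), ordered by median. Circles are medians, thick bars the middle 50% of bins, thin bars the 5th to 95th percentile, and the dotted line is 1. Chromosome 6 (red) stands apart at a median of 1.61, while chromosomes 19 (green, 1.34) and 16 (blue, 1.28) overlap chromosome 8 (1.24).

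The raised density covered chromosome 6 nearly completely and the other 2 chromosomes in part. On chromosome 6, 273 of 291 bins (93.8%) were at 1.2 or more, against 82 of 115 (71.3%) on chromosome 19 and 115 of 188 (61.2%) on chromosome 16. Chromosome 8, the next in density, was close to chromosome 16, with 141 of 246 bins (57.3%) at that level. The rule that chose the chromosomes used these values, and over all autosomes 26.2% of usable bins were that high. Bins below 1 numbered 2 on chromosome 6, 15 on chromosome 16 and 9 on chromosome 19, where 48.7% of all usable autosomal bins were below 1. Bins over 2 numbered 30 on chromosome 6 and 0 on chromosomes 16 and 19, against 0.812% of all usable autosomal bins. No usable bin of the 3 chromosomes was under 0.5, as 0.534% of usable autosomal bins were.

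Along each chromosome the density was not flat. To place changes of level, the bin ratios of each autosome were split into segments of at least 6 bins, and neighbouring segments whose means differed by under 0.15 were joined. A boundary that remained is called a step. This rule of size, which is not a test, gave 8 segments and 7 steps on chromosome 6, 4 segments and 3 steps on chromosome 16, and 4 segments and 3 steps on chromosome 19.

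**Figure D2:**
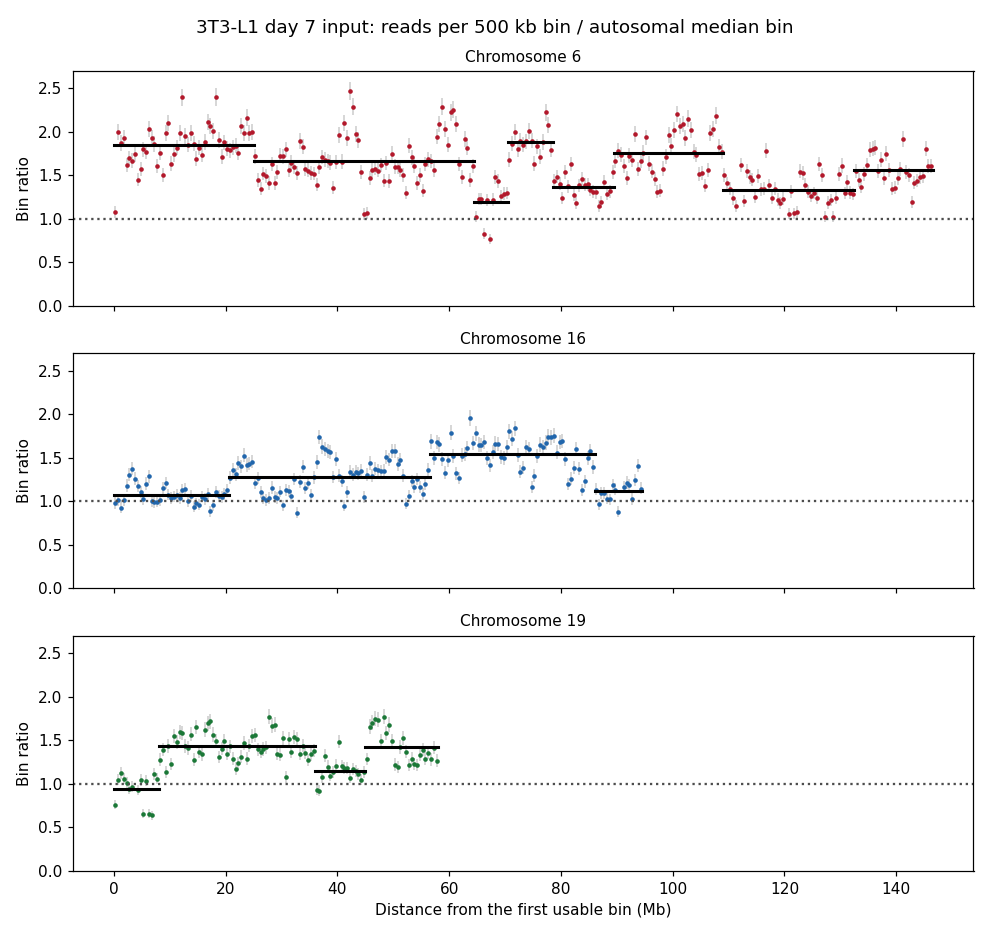
Bin ratio (y axis) along chromosomes 6, 16 and 19 against the distance from the first usable bin in Mb. Points are usable 500 kb bins, grey bars their exact 95% Poisson intervals, black lines the means of the segments, and the dotted line is 1. Chromosome 6 stays above 1 in all but 2 bins, and chromosomes 16 and 19 start near 1 and rise.

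Chromosome 6 began at one of its highest levels. Segment 1, chr6:3000001-28000000, had a mean bin ratio of 1.85 ± 0.222 (SD over 50 bins), with bins from 1.08 to 2.40. Segment 2, chr6:28000001-67500000, was at 1.67 ± 0.264 over 79 bins and ranged from 1.06 to 2.47. It held the highest bin of the chromosome, chr6:45000001-45500000 at 2.47, and only 2 Mb further on a drop to 1.06 and 1.07 in the neighbouring bins of chr6:47500001-48500000. The means of segments 1 and 2 differed by 0.183, with 95% Poisson intervals of 1.84 to 1.86 and 1.66 to 1.68. The 1 Mb before the fitted position of that step, 28.31 Mb, was at 1.93 and the 1 Mb after it at 1.44. That position was chosen for the best fit to these same reads, which tends to enlarge the contrast.

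The lowest stretch of chromosome 6 was segment 3, chr6:67500001-73500000, at 1.19 ± 0.215 over 12 bins. Both bins of the chromosome that were below 1 lay in it, chr6:69000001-69500000 at 0.830 and chr6:70000001-70500000 at 0.766. Reads in this segment had a mean mapping score of 128 in the deposited file, where the other 7 segments of the chromosome lay between 141 and 153. Its 7 bins with a mean score under 140 averaged 1.07, and its 5 bins at or over 140 averaged 1.35, from 1.26 to 1.48. The latter lay below both neighbouring segment means, but within the range of the bins of segment 2, 1.06 to 2.47. The part of the mapping score in the low level was not tested.

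From there the level rose and fell in turn. Segment 4, chr6:73500001-81500000, was the highest of the chromosome at 1.88 ± 0.149 over 16 bins, none of them under 1.64. Segment 5, chr6:81500001-92500000, was at 1.37 ± 0.122 over 22 bins, none of them above 1.63. The segments were drawn from these same bin values, so the narrow gap between the bins of segments 4 and 5 is no support for the step. Segment 6, chr6:92500001-112000000, returned to 1.76 ± 0.240 over 39 bins. Segment 7, chr6:112000001-135500000, was at 1.34 ± 0.174 over 45 bins. Segment 8, chr6:135500001-149500000, ended the chromosome at 1.56 ± 0.168 over 28 bins. Each of these segment means has a counting interval no wider than that of segment 4, 1.86 to 1.90. The rule kept only differences of at least 0.15, so changes beyond counting error were built in and do not support the steps.

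The bins over 2 on chromosome 6 were spread over 16 separate runs, the longest of 4 bins. They lay in segments 1 (9 bins), 2 (9), 4 (4) and 6 (8), and 0 lay in the other segments. All 30 had a mean mapping score of at least 149. No 10 kb window of chromosome 6 reached 5 times the chromosome's median window of 30 reads, and the largest held 146.

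On chromosome 16 the level climbed towards the distal end and then fell. The medians of its proximal, middle and distal bins, in parts of equal bin number, were 1.08, 1.34 and 1.50. Segment 1, chr16:3500001-24000000, was at 1.08 ± 0.107 over 41 bins, and 9 of these were below 1. Segment 2, chr16:24000001-60000000, was at 1.28 ± 0.188 over 72 bins, which ranged from 0.871 to 1.74. Segment 3, chr16:60000001-89500000, was the highest at 1.55 ± 0.179 over 59 bins, none of them below 1.12. It held the highest bins, chr16:67000001-67500000 at 1.96 and chr16:75000001-75500000 at 1.84. Segment 4, chr16:89500001-98000000, fell back to 1.12 ± 0.123 over 16 bins. Its highest bin, 1.41, reached into the range of segment 3.

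So the median of 1.28 that put chromosome 16 among the highest was the level of its middle segment. The proximal 41 bins (21.8% of its usable bins) and the distal 16 (8.51%) had means of 1.08 and 1.12, and the median of the other 16 autosomes' medians was 0.986.

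Chromosome 19 began below its own level. Segment 1, chr19:3000001-11000000, was at 0.936 ± 0.172 over 15 bins, 7 of them below 1. Its lowest bins were chr19:9500001-10000000 at 0.639 and chr19:8000001-8500000 at 0.652, with mean mapping scores of 117 and 74.7. Its 10 bins with a mean score of at least 140 averaged 1.03, from 0.926 to 1.13, and its 5 bins under that score averaged 0.750. The mean of the bins with the higher scores was thus also below the means of the other segments, with which single bins overlapped. Segment 2, chr19:11000001-39000000, was at 1.43 ± 0.149 over 56 bins and made up 48.7% of the usable bins. Segment 3, chr19:39000001-48000000, was at 1.14 ± 0.129 over 18 bins. Segment 4, chr19:48000001-61000000, was at 1.43 ± 0.190 over 26 bins, the same mean as segment 2. Within it the bins fell from a crest that held chr19:51000001-51500000, at 1.77, to 1.26 in the last usable bin. Some of the alternative settings described below placed a step within this fall.

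In parts of equal bin number, the proximal, middle and distal bins of chromosome 6 had medians of 1.74, 1.60 and 1.49, a decline along the chromosome. Those of chromosome 19 were 1.29, 1.37 and 1.28.

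The steps were then placed at finer scale. Within 2 Mb of each bin edge, a model with 1 rate on each side was fitted to 10 kb windows, and the range of positions within 2 log-likelihood units was taken as the counting error. These ranges were at most 0.38 Mb wide for the 13 steps. They hold only if the level truly changes at 1 point. In the plot of 100 kb windows around the steps the windows on each side scatter and drift, so the narrow ranges do not show that the change is abrupt. The flanks given for the steps were read at the fitted positions from the same windows. This tends to enlarge their contrast, so they are no separate support for the steps.

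**Figure D3:**
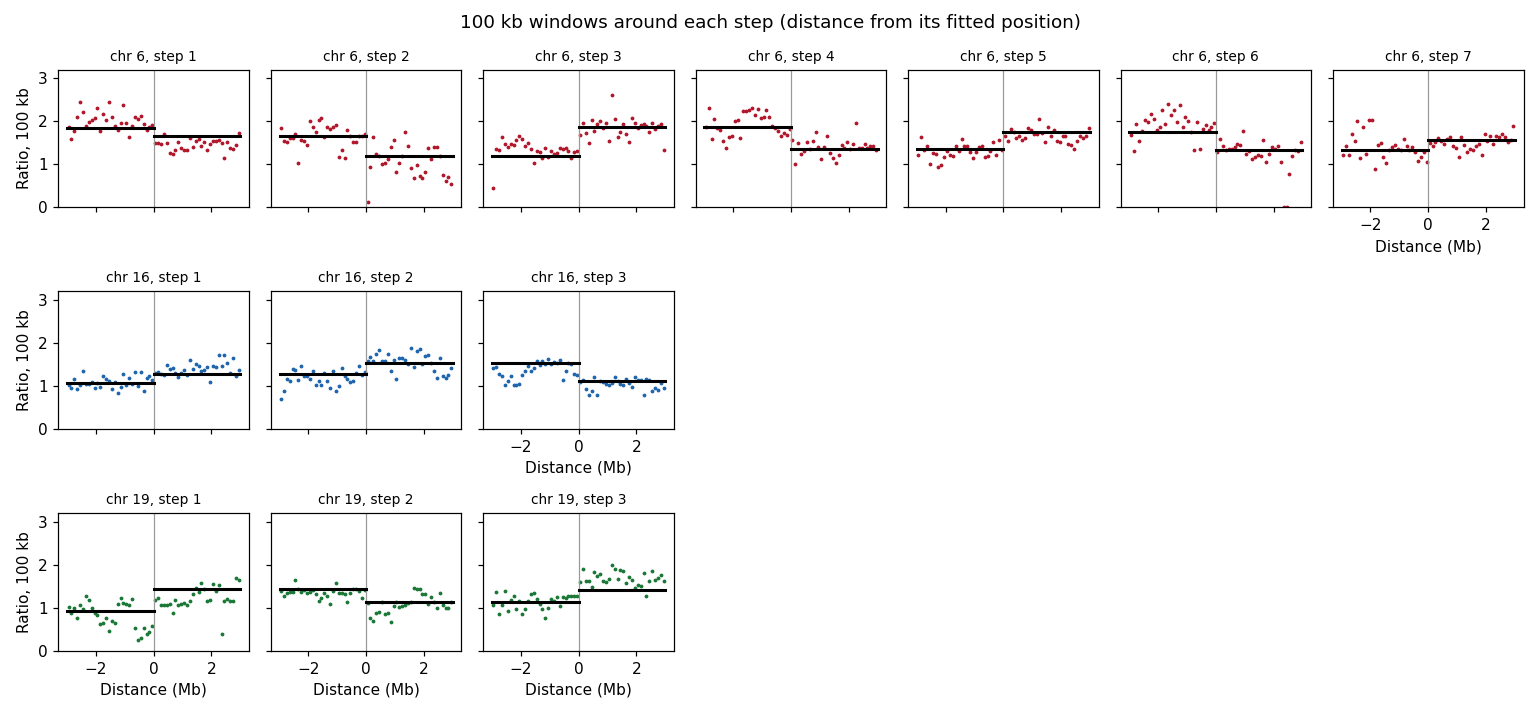
Ratio of 100 kb windows (y axis, same scale as the bin ratio) against the distance in Mb from the fitted position of each of the 13 steps. Black lines are the means of the segments on either side. Chromosome 6 step 3 and step 4 show a change near 0 distance, while at chromosome 19 step 1 the windows before the position first dip and those after it climb over about 2 Mb.

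On chromosome 6 the largest step was the rise fitted at 73.57 Mb, with segment means of 1.19 and 1.88 and 1 Mb flanks of 1.29 and 1.84. Next came the falls at 81.63 Mb, with flanks of 1.89 and 1.42, and at 67.51 Mb, with flanks of 1.52 and 1.12. The fall at 112.13 Mb had flanks of 1.78 and 1.44. These steps amounted to 42.8%, 31.9%, 29.8% and 26.4% of the chromosome's median. Smaller ones were the rise at 92.23 Mb with flanks of 1.34 and 1.69, the rise at 135.3 Mb with flanks of 1.29 and 1.51, and the fall at 28.31 Mb. The last 2 amounted to 13.9% and 11.4% of the median.

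On chromosome 16 the fall fitted at 89.69 Mb was the largest, with flanks of 1.43 and 1.01. The rise at 59.91 Mb had flanks of 1.24 and 1.63, and the rise at 24.26 Mb had flanks of 1.13 and 1.33. On chromosome 19 the rise between segments 1 and 2 lay at a bin edge of 11 Mb and was fitted at 9.91 Mb, 1.09 Mb away. The 1 Mb before that position was at 0.638, its last 500 kb at 0.448, and the 1 Mb after it at 1.10. The latter was below the mean of segment 2, 1.43, so the fitted position marks the end of a dip rather than the full rise. The fall at 39.08 Mb had flanks of 1.34 and 0.897, and the rise at 48.57 Mb had flanks of 1.23 and 1.69.

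Some of these steps were found under nearly every other setting and some were not. Each step was looked for within 1 Mb, in the same direction, under 19 alternatives of reads, bins and thresholds. On chromosome 6 the fall at 112 Mb was found in 18, those at 67.5 and 73.5 Mb in 17 each, those at 81.5 and 92.5 Mb in 16 each, and those at 28 and 135.5 Mb in 11 each. The steps at 67.5 and 73.5 Mb were lost when only bins with a mean score of at least 140 were used, which leaves 5 bins between them, fewer than a segment may have. On chromosome 16 the fall at 89.5 Mb was found in 18, the rise at 60 Mb in 17 and the rise at 24 Mb in 14. The rise at 24 Mb was missed with 1 Mb bins, the median of 10 kb windows, minus strand reads and a penalty of 10. In each of these the first rise of chromosome 16 lay at 39 Mb instead. A step size of 0.25 also missed it, and with a penalty of 3 rises were placed at both 24 and 39 Mb. On chromosome 19 the rise at 11 Mb was found in 17, and those at 39 and 48 Mb in 15 each. The steps at 39 and 48 Mb were lost with bins of at least 140 in mean score, with minus strand reads alone, with 1 Mb bins and with a penalty of 10, and each of these left chromosome 19 with 1 step, at 11 Mb. With only the reads at or above the median mapping score of 182, chromosome 6 had 6 steps. Of its 7 steps 5 had no match among them, those at 67.5 and 73.5 Mb being the exceptions. Further steps came with some settings, as in these examples. On chromosome 19 a fall came at 53 Mb with these reads and with a penalty of 3, from 1.65 to 1.31 in the latter. Bins of 250 kb and bins shifted by 250 kb placed it at 52.75 Mb. A rise on chromosome 6 came at 60.5 Mb with these reads, a penalty of 3, 250 kb bins and every read line kept. In the last it went from 1.62 to 1.91.

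Steps were found on 17 of the 19 autosomes. The 3 chromosomes had 13 steps at 591 boundaries between neighbouring usable bins, or 2.20%, and over all autosomes 1.82% of boundaries were steps. Of the 13, 7 were rises and 6 falls, where 0.901% and 0.922% of all autosomal boundaries were. That is 4.38 steps per 100 Mb against 3.52 on the other 16 autosomes, of which 14 had a step. With a fixed size of 0.15 a step is easier to reach where the level is high. The size was also set to 15% of each chromosome's own median, chosen after the values were seen. Chromosome 6 then had 5 steps in place of 7, and chromosomes 16 and 19 kept 3 each. This relative size was not run on the other 16 autosomes. As a share of the own median, the middle step of the 3 chromosomes was 24.6% and that of the others 26.9%. These shares come from the fixed size, which is a smaller share of a higher median. The smallest steps were 11.4% on the 3 chromosomes and 15.9% on the others.

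**Figure D4:**
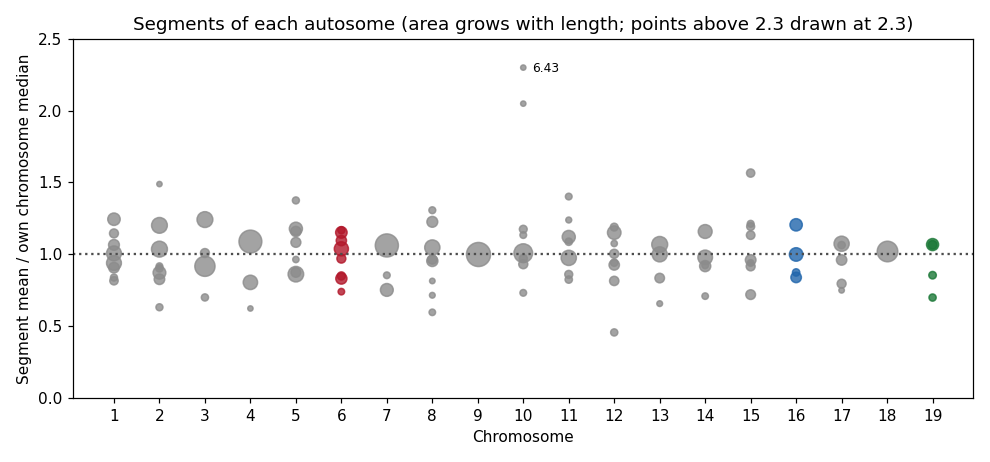
Mean bin ratio of each segment divided by the median bin of its own chromosome (y axis), for the 19 autosomes. The area of a point grows with the length of the segment, and 1 point of chromosome 10 at 6.43 is drawn at 2.3. The segments of chromosomes 6 (red), 16 (blue) and 19 (green) lie between 0.699 and 1.21, inside the range of the other autosomes.

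Relative to their own level the 3 chromosomes were about as even as other autosomes. The SD of their bins was 18.3%, 18.7% and 18.2% of the mean for chromosomes 6, 16 and 19. Among the other 16 autosomes this ranged from 14.2% on chromosome 18 to 127% on chromosome 10, with a median of 20.2%. The highest segment of chromosome 6 was 1.58 times its lowest, that of chromosome 16 was 1.44 times and that of chromosome 19 was 1.53 times. The median over the other 16 autosomes was 1.67 times. Counting alone would give an SD of 2.57%, 2.87% and 2.85% of the mean, so nearly all of the unevenness lies beyond counting error. Neighbouring bins resembled each other, with correlations across bins of 0.70 on chromosome 6, 0.79 on chromosome 16 and 0.69 on chromosome 19. Over 10 bins, or 5 Mb, these came down to 0.15, 0.31 and 0.10. The steps themselves enter these correlations, and bins of 1 library are not replicates.

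Reads of the plus and minus strands, counted apart, gave similar bin ratios. The steps found with each were not always the same: on chromosome 19 plus strand reads gave 3 steps and minus strand reads 1. Across bins the correlation of the log2 ratios of the 2 strands was 0.97 on chromosome 6, 0.95 on chromosome 16 and 0.96 on chromosome 19. The SD of the log2 difference between strands was 0.07, 0.09 and 0.08, and Poisson counting would give 0.08, 0.08 and 0.08. Both strands come from the same library and share everything but the counting error.

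Other measures of the reads lay within or close to the range of the other autosomes. Repeated reads that were removed made up 2.94%, 2.62% and 2.67% of the reads of chromosomes 6, 16 and 19, within the 2.41% to 6.21% of the other autosomes. Plus strand reads made up between 49.8%, on chromosome 16, and 50.04%, on chromosome 6. The mean mapping score was 150 on chromosome 6, 153 on chromosome 16 and 149 on chromosome 19. The score of chromosome 16 was the highest of the 19 autosomes by a narrow margin over 152 on chromosome 15, and the other 2 ranked at 13 and 14. Windows of 10 kb without a read, beyond the empty start of each chromosome, made up 0.683%, 0.577% and 0.703% of windows, where the other autosomes ranged from 0.229% to 10.2%.

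Within the chromosomes the bin ratio went with the mapping score. The correlation across bins between the log2 ratio and the mean score was 0.60 on chromosome 6 (291 bins), 0.70 on chromosome 16 (188 bins) and 0.62 on chromosome 19 (115 bins). Over the 4088 usable bins of the other autosomes it was 0.46, each bin taken relative to its own chromosome. In single other autosomes it ranged from 0.16 on chromosome 2 to 0.78 on chromosome 13, so the 3 chromosomes lay within that range. These correlations describe bins that share 1 library. Bins with a mean score under 140 numbered 31, 5 and 11 and had a median ratio of 1.23, 0.955 and 0.928. Bins at or over 140 had a median of 1.63, 1.29 and 1.35. The raised level of the 3 chromosomes was thus present in the bins with the higher scores, while several of the lowest bins had low ones: 6 of the 9 bins below 1 on chromosome 19, 4 of the 15 on chromosome 16 and both of those on chromosome 6 had a score under 140.

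**Figure D5:**
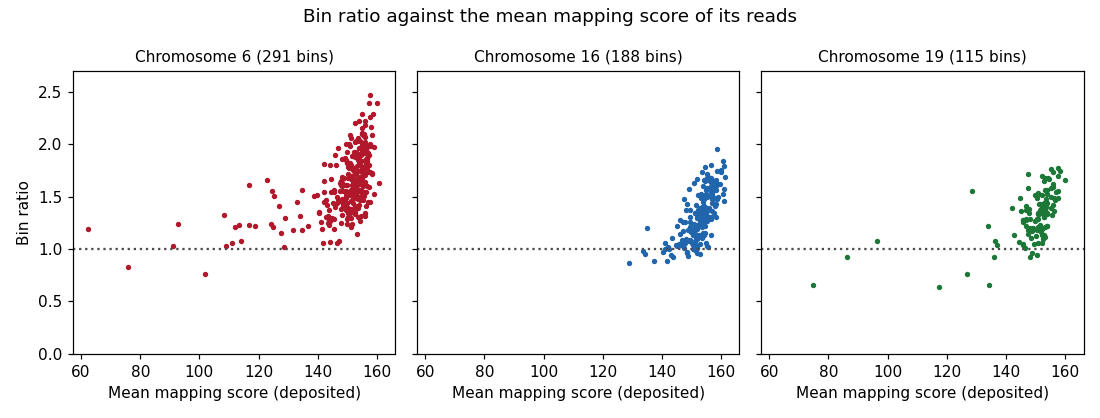
Bin ratio (y axis) against the mean deposited mapping score of the kept reads of each usable bin (x axis) on chromosomes 6, 16 and 19. The dotted line is a ratio of 1. The lowest bins of chromosomes 6 and 19 have scores under 140, and the 30 bins over 2 on chromosome 6 all have a mean score of at least 149.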

How the data were processed

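The members, the step rule and the alternatives were chosen with earlier results of these data known. One deposited file was used, the aligned reads of the 3T3-L1 day 7 input, which as deposited by the authors gives each read a line and a mapping score of unstated meaning (lowest 4, highest 203); 99.4% of reads span 50 bases. Build mm9 and the tools SICER, CASAVA 1.8.2, Cufflinks 1.0.3 and TopHat2 2.0.10 are named in the submitters' processing notes, without saying which made this file. The other 5 processed files hold RNA of other cells and were not used.

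Reads were counted by their start in 10 kb windows and 500 kb bins with scipy 1.17.1, pandas 2.3.3 and numpy 2.4.6 in Python 3.11.15. Plots were made in matplotlib 3.10.9. Incomplete last bins were left out. Segments came from optimal partitioning of log2 bin ratios by least squares, with a penalty per step of 5 noise variances times the natural log of the number of usable bins. The noise SD, from neighbouring bins, was 0.12 on the log2 scale. Positions are 1-based on mm9. The regions named are the segments, the steps, the bins under 0.5 or over 2, and the 2 highest and 2 lowest bins of each chromosome; the bins at chr6:47500001-48500000 were named after their values were seen. The step rule was also run on simulated bins with independent scatter and a single step or none per chromosome. Real neighbouring bins resemble each other, so that run is no support for the steps found here. No sequence is printed, since no mm9 genome was used here.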

Additional observations from a re-analysis of the deposited data

How the results depend on the processing

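Medians are given for chromosomes 6, 16 and 19 in that order. They stayed above 1.2 under all 14 alternatives run for them. A move was counted when it exceeded the 95% Poisson error of the chromosome's whole read count. This limit covers neither the scatter of bins around a median nor the smaller counts of read subsets. The medians that moved past it were as follows. With reads at or above the median mapping score they were 1.64, 1.31 and 1.31, with bins of 250 kb 1.59, 1.27 and 1.32, and divided by the mean bin 1.53, 1.22 and 1.27. In alternatives added after the values were seen, bins with a mean score of at least 140 gave 1.63, 1.29 and 1.35, and division by the median bin of the other 16 autosomes gave 1.67, 1.33 and 1.39. On chromosomes 6 and 16, bins with 98% of windows filled gave 1.61 and 1.29, and division by the median of chromosome medians 1.61 and 1.29. On chromosomes 6 and 19, the median of 10 kb windows gave 1.62 and 1.32, and plus strand reads 1.59 and 1.33. Minus strand reads gave 1.29 on chromosome 16 and 1.32 on chromosome 19. Bins of 1 Mb gave 1.60 on chromosome 6, and all bins with a read gave 1.28 on chromosome 16.

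The number of steps, 7, 3 and 3, depended on bin size and penalty. Bins of 250 kb gave 12, 7 and 5 steps. A penalty of 3 gave 12 on chromosome 6 and 6 on chromosome 16. Both bins of 1 Mb and a penalty of 10 gave 3 on chromosome 6 and 1 on chromosome 19. Bins with a mean score of at least 140 gave 4 and 1 on these chromosomes, and minus strand reads alone gave 1 on chromosome 19. The cause was not tested. At the 13 edges, which were chosen for a difference of at least 0.15 in this same library, the difference between the segments was at least that size and in the same direction in all 182 recomputed values, some of which only change the divisor and could not change direction. This is no independent support for the steps. No paired analysis was possible because there was 1 library. The limit of the data is this single library. At 932 reads in the median bin, counting error alone spans 0.937 to 1.07 of the level of 1 bin. The scatter between neighbouring bins was wider, with a noise SD of 8.99% against 3.28% from counting. A change in 1 bin would thus have to be larger than the counting interval to stand out.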
